A study of Mus musculus with 12 samples.

Results

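Myc and 34 genes of ribosome biogenesis were followed in 2 populations of CD4 T cells from infected spleen. The 35 members were taken by gene symbol from a list of nucleolar genes, and all 35 were found among the 55401 genes of the deposited counts. The first population, called TLCP, was sorted from CD4 T cells by LAG-3 and CXCR5 with low to intermediate PD-1 (LAG-3+ CXCR5+ PD-1lo/int), and the other, called Tfh, was sorted as CXCR5+ PD-1hi T follicular helper cells, mostly of germinal centers per the series description. Both came from the spleens of C57BL/6 mice, 21 days after they were infected with Leishmania donovani, the parasite of visceral leishmaniasis. Both groups were infected, the labels give neither age nor sex, and uninfected or naive cells are not analysed here. Each group holds 6 libraries of polyA RNA, numbered 1 to 6, and the series description gives 6 mice.

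Myc is a transcription factor that binds DNA together with Max at E-box motifs and is known in T cells for growth after activation. In the nucleolus, RNA polymerase I copies the ribosomal DNA into a long precursor RNA. Small nucleolar ribonucleoproteins (snoRNPs) then guide the methylation (box C/D) and pseudouridylation (box H/ACA) of this RNA, and assembly factors cut and fold it into the small and large ribosomal subunits. Many genes of this pathway are known Myc targets.

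Between 8531523 and 9896009 reads per TLCP library, and between 6939770 and 12688306 per Tfh library, were assigned to genes. The least counted member had 62 reads in its lowest library, so no member was near the limit that a count of 0 allows (3 counts, 0.236 to 0.432 CPM, counting error only). CPM here is TMM-scaled counts per 1e6 assigned reads. Of the genes of the sort, Lag3 averaged 189 CPM in TLCP and 40.5 in Tfh, and Pdcd1, which encodes PD-1, averaged 36.6 CPM in TLCP and 318 in Tfh. Cxcr5 averaged 277 CPM in TLCP and 849 in Tfh (log2 fold change -1.62, adjusted p = 1.1e-07, no overlap). Cd4 was lower as well, at 725 CPM in TLCP and 955 in Tfh, and Cd3e was at 503 CPM in TLCP and 520.3 in Tfh and did not pass. Immunoglobulin transcripts came to 7273 to 42820 CPM in TLCP and to 1196 to 4246 CPM in Tfh, and a gene of ribosomal RNA-like sequence, CT010467.1, held 12.9% to 24.1% of the assigned reads in TLCP and 16.6% to 30.9% in Tfh.

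All members are protein-coding genes. In GRCm38 coordinates, Nop56 lies on chromosome 2 from 130274430 to 130279313, Nop10 on chromosome 2 from 112261926 to 112263269 and Dkc1 on chromosome X from 75095854 to 75109777, all on the plus strand. Rrp1b lies on chromosome 17 from 32036100 to 32062865 on the plus strand, Gnl3 on chromosome 14 from 31012433 to 31019152 and Ubtf on chromosome 11 from 102304560 to 102319742, both on the minus strand. The spans of 6 members, Nop56, Nop58, Dkc1, Wdr43, Gnl3 and Ncl, hold snoRNA genes on the same strand, and reads over both genes are not assigned to either by this kind of counting.

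The members were compared between TLCP and Tfh to ask whether the 2 populations differ in the transcripts of genes that build ribosomes. Most members had a slightly higher level in TLCP, with Myc at the top of the range and the H/ACA protein gene Nop10 at the bottom. All 35 members were tested, and 16 rose in TLCP, 2 fell and 17 did not pass (edgeR quasi-likelihood test, Benjamini-Hochberg adjusted p under 0.05 over 12015 genes). The 16 are 45.7% of the members, where 16.8% of all genes tested were called higher. The 2 that fell, Ubtf and Nop10, are 5.71% of the members, where 16.4% of all genes were called lower. The median log2 fold change, TLCP over Tfh, was 0.22 over the members and -0.004 over all genes tested. Log2 fold changes ran from -0.54 to 0.89, with 31 positive and 4 negative (33 and 2 with library totals alone, 34 and 1 on TPM), and 4 members reached a 1.5-fold change. The shares of all genes with a positive sign or with a 1.5-fold change were not counted. All 6 TLCP libraries lay above all 6 Tfh libraries in 6 members (17.1%), namely Myc, Nop56, Dkc1, Nop14, Rrp1b and Gnl3, where this held for 8.3% of all genes. They all lay below in 1 member, Nop10, where this held for 8.86% of all genes. In the authors' deposited table, 16 members were higher and 2 lower at an adjusted p under 0.05, where 14.1% and 11.6% of 17139 genes were. With the numbered pairs as a block, 17 were higher and 2 lower, where 19.1% and 18% of genes were. The count of members higher was 10 without TLCP library 5, where 14.8% of genes were called, and also without Tfh library 3, where 14.5% were.

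**Figure D1:**
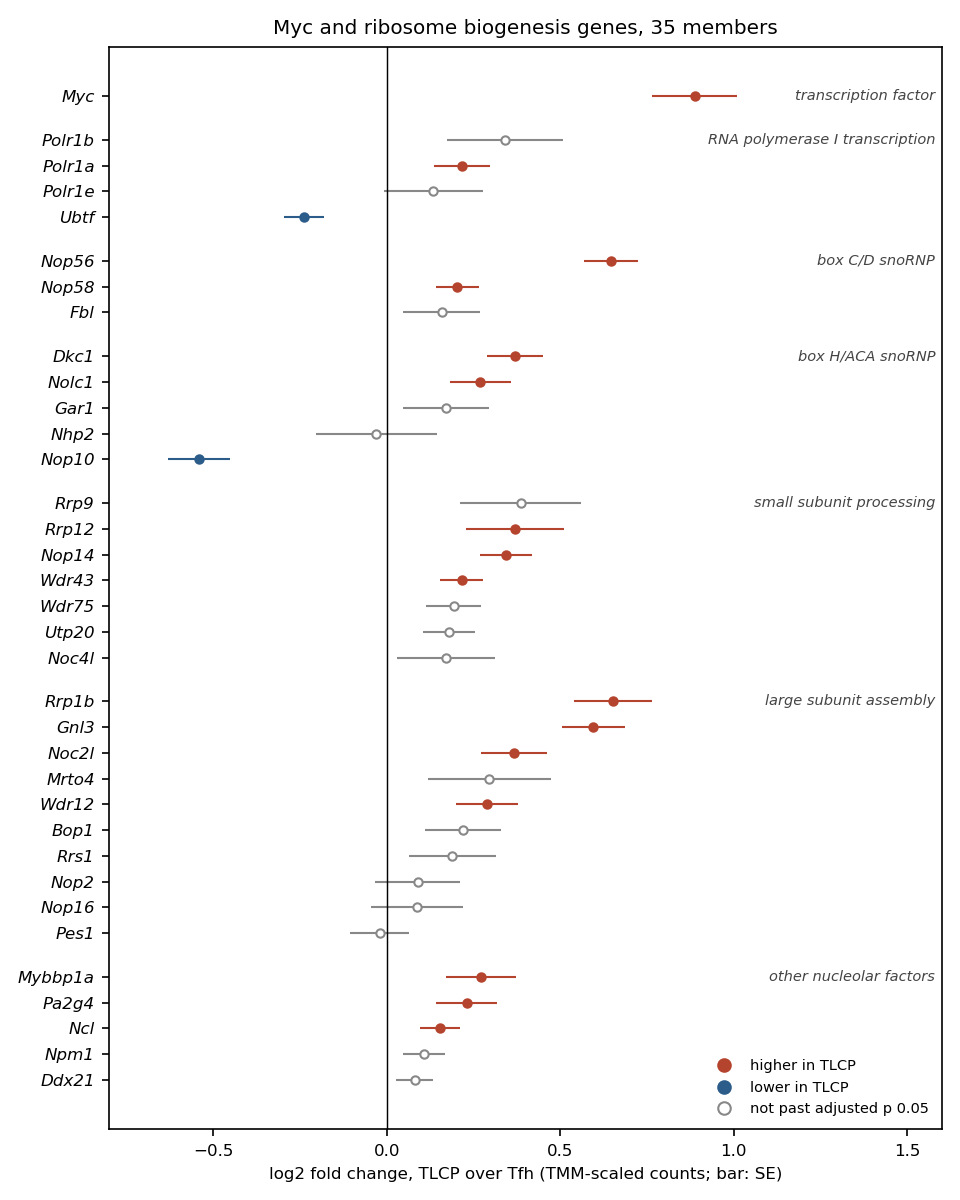
Log2 fold change of each of the 35 members, TLCP over Tfh, in role groups (x axis, TMM-scaled counts; bars are 1 SE; 6 libraries a group). Filled red points were higher in TLCP and filled blue points lower at an adjusted p under 0.05, and open points did not pass: 16 are red and 2, Ubtf at -0.24 and Nop10 at -0.54, are blue.

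The directions depend on how libraries are scaled. With library totals alone as the scale, the median over all genes moved to 0.17 (log2) in place of -0.004, and the members higher and lower numbered 25 and 1, where 26.7% and 7.43% of all genes were called. On the deposited TPM values, which include CT010467.1 in the total, 27 members were higher and 0 lower by limma, where 24.9% and 3.71% were called, and 0 members were lower at an unadjusted p under 0.05. A pseudocount of 0.1 in place of 1 gave the same counts, where 24.4% and 3.63% were called. Nop10 kept a negative fold change there (-0.26), while Ubtf, Pes1 and Nhp2 had positive ones (0.05, 0.26 and 0.30). With ribosomal RNA genes left out of the totals, 11 were higher and 2 lower, where 16.1% and 17% were called. Changes below are given on the TMM scale, relative to a median of all genes near 0.

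**Figure D2:**
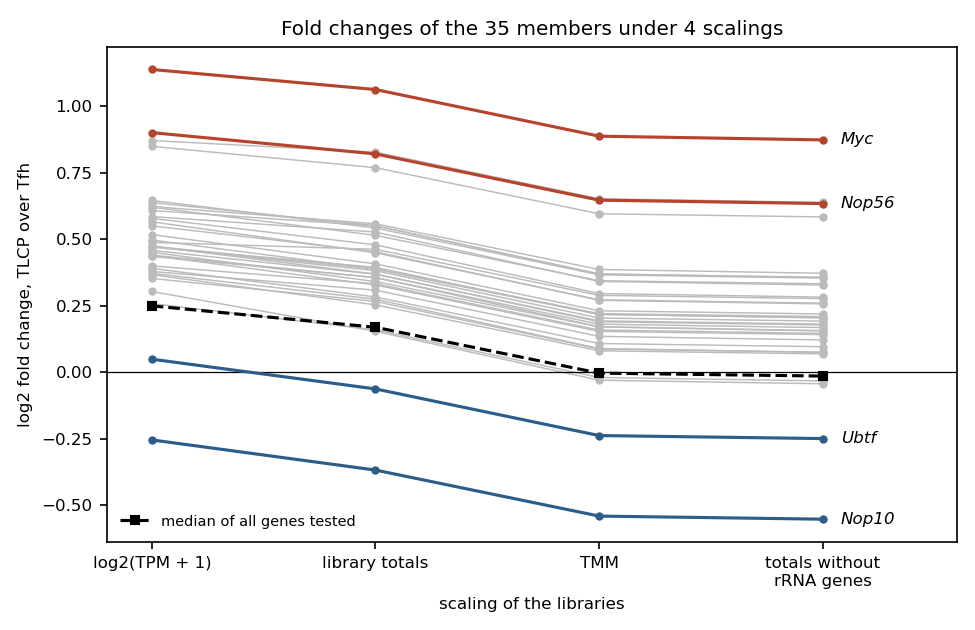
Log2 fold change of every member, TLCP over Tfh (y axis), under 4 scalings of the libraries (x axis). Each line is a member, with Myc and Nop56 in red and Ubtf and Nop10 in blue, and the dashed line is the median of all genes tested; the lines shift together, and Ubtf lies below 0 on the TMM scale (-0.24) and above 0 on TPM (0.05).

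Myc had the highest fold change of the members. Its level was 33.7, 42.4 and 48.9 CPM (lowest, median and highest of 6) in TLCP, against 18.1, 23.5 and 29.1 CPM in Tfh. Every TLCP library was above every Tfh library. The mean was 42.5 ± 5.46 CPM for TLCP, against 23.1 ± 4.37 CPM for Tfh (SD, n = 6 each, as for all means ± SD here). Myc was 1.85-fold higher in TLCP, or 0.89 in log2 fold change (SE 0.12, adjusted p = 1.3e-05). It kept its call without any single library and under every alternative tried, with log2 fold changes of 0.77 to 1.18. Myc is a protein-coding gene on the plus strand of chromosome 15 from 61985391 to 61990374 (GRCm38). Because these are bulk libraries, a larger share of cells with Myc RNA and more Myc RNA per cell cannot be told apart.

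The proteins that pair with or oppose Myc were taken from a list of 13 genes. Mycn and Mycl, the other Myc family genes, had at most 2 and 17 reads in a library and were not tested. Of the 11 tested, 3 were higher (27.3%) and 2 lower (18.2%), where 16.8% and 16.4% of all genes were. Max, the obligate partner of Myc, fell to 91.8 ± 6.05 CPM in TLCP, against 136 ± 8.94 CPM in Tfh (log2 fold change -0.57, SE 0.067, adjusted p = 1.9e-06), and all TLCP libraries lay below all Tfh libraries. Mxd4, which competes with Myc for Max, fell by 0.48 on the log2 scale (adjusted p = 5.0e-05). Mlxip, a glucose-responsive factor that pairs with Mlx, rose to 84.2 ± 3.81 CPM in TLCP, against 64.2 ± 4.19 CPM in Tfh. Mxd1, another antagonist, rose, with 31.2 to 63.0 CPM in TLCP against 13.2 to 26.1 CPM in Tfh (log2 fold change 1.16, SE 0.22, adjusted p = 0.0011). Fbxw7, the ubiquitin ligase subunit that marks Myc protein for breakdown, was the third gene that rose (log2 fold change 0.40, adjusted p = 0.0021); Mxd1 and Fbxw7 were chosen for naming after their values were seen. The ratio of Myc to Max reads within a library, which no scaling of libraries can move, averaged -1.12 ± 0.26 (log2) in TLCP and -2.58 ± 0.21 in Tfh, and the groups did not overlap. This was 2.76-fold higher in TLCP. On TPM, Max and Mxd4 had log2 fold changes of -0.28 and -0.19 and were not called.

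**Figure D3:**
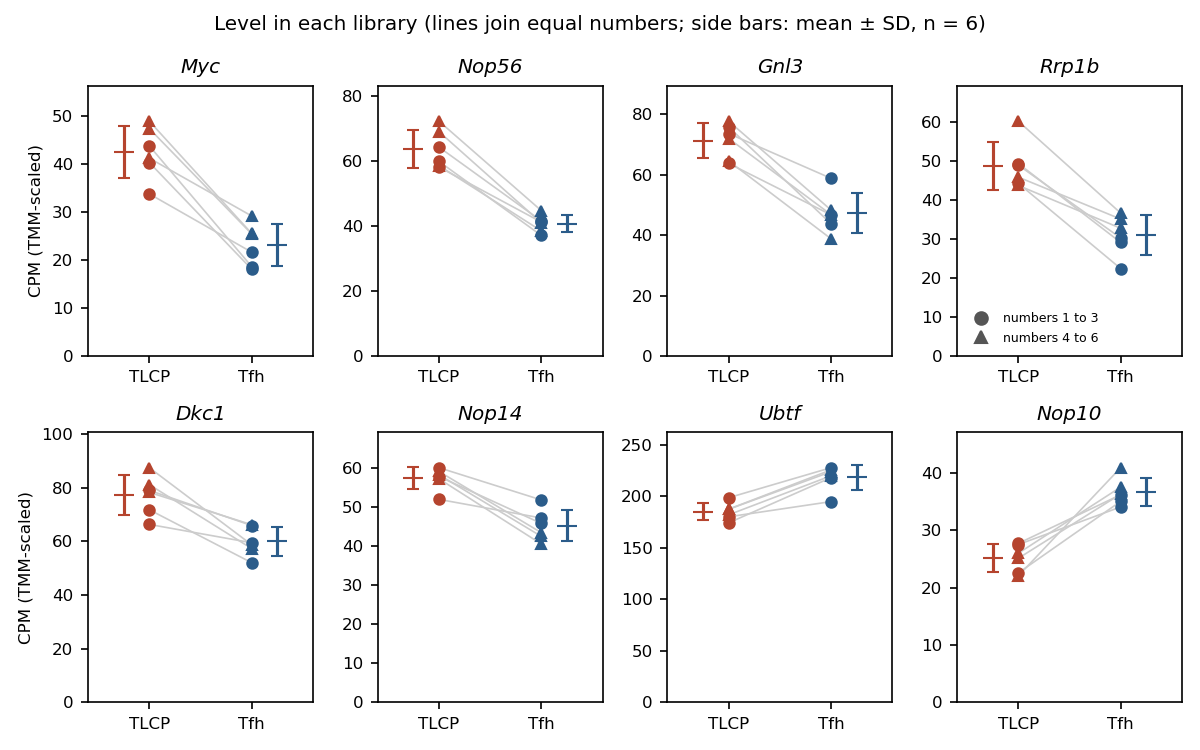
CPM (y axis, from 0) in each library of TLCP and Tfh for 8 members; circles are libraries numbered 1 to 3, triangles 4 to 6, lines join equal numbers, and side bars are mean ± SD (n = 6). Myc, Nop56, Gnl3, Rrp1b, Dkc1 and Nop14 are higher in every TLCP library than in any Tfh library, Nop10 is lower in every one, and for Ubtf the groups overlap only through Tfh library 1 at 195 CPM.

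Among the 4 members of RNA polymerase I transcription, 1 rose, 1 fell and 2 did not pass, where 16.8% of all genes were higher and 16.4% lower. Polr1a, the largest catalytic subunit, had 68.9, 74.6 and 85.4 CPM in TLCP (lowest, median, highest), against 58.0, 64.6 and 76.6 CPM in Tfh. The groups overlapped, and all 6 numbered pairs were higher in TLCP (log2 fold change 0.22, SE 0.080, adjusted p = 0.043). The call of Polr1a was lost in 9 of the 12 fits that left out a library and under 4 of 17 other settings. Ubtf, the upstream binding factor that coats active ribosomal DNA, had 174, 185 and 199 CPM in TLCP, against 195, 222 and 228 CPM in Tfh. It was lower in TLCP in all 6 pairs (log2 fold change -0.24, SE 0.057, adjusted p = 0.0030; -0.06 and not called with library totals alone, 0.05 on TPM). The ratio of Ubtf to Polr1a reads within a library was 1.28 ± 0.12 (log2) in TLCP and 1.74 ± 0.14 in Tfh, with no overlap. Polr1b, the other large catalytic subunit, had a log2 fold change of 0.34 (adjusted p = 0.13) with wide spread in both groups, and it passed when the numbered pairs were a block (0.37, adjusted p = 0.025). Polr1e, a subunit of the initiation heterodimer, had 0.13 (adjusted p = 0.51).

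The 11 RNA polymerase I genes outside the members had 2 higher and 2 lower (18.2% each), where 16.8% and 16.4% of all genes were. Their median was -0.02 (log2 fold change). Taf1a, of the SL1 promoter complex, rose to 15.5 ± 1.64 CPM in TLCP, against 10.8 ± 2.08 CPM in Tfh (log2 fold change 0.52, adjusted p = 0.0095). Taf1d, of the same complex, rose by 0.27. Taf1c and Taf1b, also of this complex, did not pass (log2 fold change 0.20 with adjusted p = 0.41 for Taf1c, -0.008 with adjusted p = 0.96 for Taf1b). Polr1d, a subunit shared by polymerases I and III, fell by 0.29 (adjusted p = 0.013), was not called with library totals alone, and was at 0.002 on TPM. Polr1c was the other gene called lower (log2 fold change -0.32, adjusted p = 0.048). Of 21 RNA polymerase III genes, whose products make 5S and transfer RNA, 3 were higher (14.3%) and 1 lower (4.76%). Of all genes tested, 16.8% were higher and 16.4% lower. The 3 were Brf1 (log2 fold change 0.40), Bdp1 (0.34) and Polr3e (0.35), the first 2 of them parts of the initiation factor TFIIIB. The gene called lower was Gtf3c1 (log2 fold change -0.24, adjusted p = 0.025).

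Of the 3 members that encode core proteins of box C/D snoRNPs, which carry out 2'-O-methylation, Nop56 had the highest fold change. Nop56 had 58.2, 62.1 and 72.3 CPM in TLCP, against 37.1, 41.1 and 44.8 CPM in Tfh. The groups were well apart, with means of 63.8 ± 5.91 CPM for TLCP and 40.7 ± 2.66 CPM for Tfh (log2 fold change 0.65, SE 0.079, adjusted p = 3.1e-06). Nop58, its partner in the same particle, had 115, 127 and 135 CPM in TLCP, against 101, 108 and 117 CPM in Tfh. That difference was smaller and the groups overlapped (log2 fold change 0.20, SE 0.063, adjusted p = 0.017). Fbl, the methyltransferase itself, averaged 22.1 ± 3.22 CPM in TLCP, against 19.8 ± 1.34 CPM in Tfh, and did not pass (log2 fold change 0.16, 95% interval -0.06 to 0.38, adjusted p = 0.30). The ratio of Fbl to Nop56 reads was -1.54 ± 0.25 (log2) in TLCP and -1.04 ± 0.08 in Tfh, and the groups did not overlap.

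In the box H/ACA group, which makes pseudouridine, 2 of 5 members rose and 1 fell, where 16.8% of all genes were higher and 16.4% lower. Dkc1, the pseudouridine synthase dyskerin, had 66.3, 78.6 and 87.4 CPM in TLCP, against 52.0, 59.1 and 66.2 CPM in Tfh. The ranges just failed to touch (log2 fold change 0.37, SE 0.081, adjusted p = 0.0014). Nop10, a small protein that binds dyskerin in the same particle, had 22.1, 25.6 and 27.7 CPM in TLCP, against 34.1, 36.3 and 40.9 CPM in Tfh. Every TLCP library was below every Tfh library, and Nop10 was 1.46-fold lower in TLCP (log2 fold change -0.54, SE 0.089, adjusted p = 9.8e-05). The ratio of Nop10 to Dkc1 reads averaged -1.62 ± 0.18 (log2) in TLCP and -0.71 ± 0.19 in Tfh, which is 1.88-fold lower in TLCP. Nolc1, a chaperone of these particles, rose by 0.27 (SE 0.087, adjusted p = 0.022). The other core proteins, Gar1 and Nhp2, did not pass (log2 fold change 0.17 with adjusted p = 0.32 for Gar1, -0.03 with adjusted p = 0.91 for Nhp2), and Nhp2 ranged from 11.2 to 30.7 CPM within Tfh. Of 10 snoRNP and snoRNP assembly genes outside the members, edgeR and DESeq2 called 0, and 0 by edgeR and 1 by DESeq2 had an unadjusted p under 0.05. The 3 with the smallest p were Tcof1 (log2 fold change 0.14), Ruvbl1 (-0.23) and Naf1 (-0.17), the last 2 of them positive on TPM (0.08 and 0.11). Tcof1, whose product treacle works in ribosomal DNA transcription, was called higher with library totals alone (0.31, adjusted p = 0.0072) and by limma on TPM (0.41, adjusted p = 0.016).

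All 7 members of small subunit processing had a positive fold change, where the median of all genes was -0.004. Of the 7, 3 passed, where 16.8% of all genes tested were called higher. Nop14, a scaffold of the small subunit processome, had 52.0, 58.1 and 60.2 CPM in TLCP, against 40.6, 44.7 and 51.9 CPM in Tfh. The lowest TLCP library and the highest Tfh library were nearly level, and the rest lay apart (log2 fold change 0.34, SE 0.076, adjusted p = 0.0015). Wdr43, which in yeast belongs as Utp5 to the complex that first binds the precursor, had 122, 127 and 136 CPM in TLCP, against 102, 108 and 123 CPM in Tfh. It was higher in TLCP in all 6 pairs, with a small overlap of the groups (log2 fold change 0.22, SE 0.062, adjusted p = 0.011). Rrp12, needed in yeast for export of the pre-40S particle, rose by 0.37 (SE 0.14, adjusted p = 0.0496), a call lost in 9 of the 12 fits that left out a library. Rrp9, a protein of the U3 snoRNP, had a fold change as large, 0.39, but an SE of 0.17 and an adjusted p of 0.096. Of the reads at its locus, 18.5% were on the opposite strand, where the annotation has Parp3, and were not in its count; with both strands counted the fold change was 0.36 (adjusted p = 0.11). Wdr75 (0.19), Utp20 (0.18) and Noc4l (0.17) did not pass.

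Of 10 members of large subunit assembly, 4 rose and 6 did not pass, where 16.8% of all genes tested were called higher. Rrp1b, a nucleolar protein of large subunit processing, had 43.6, 47.3 and 60.1 CPM in TLCP, against 22.4, 31.4 and 36.6 CPM in Tfh. The groups did not overlap, and Rrp1b was 1.57-fold higher in TLCP (log2 fold change 0.65, SE 0.11, adjusted p = 1.4e-04). Gnl3, the GTPase nucleostemin, had 63.8, 72.8 and 77.7 CPM in TLCP, against 38.8, 46.8 and 58.8 CPM in Tfh. It was 1.51-fold higher, again with no overlap (log2 fold change 0.59, SE 0.091, adjusted p = 4.3e-05). Noc2l, a factor of the early pre-60S particle, had 69.4, 76.5 and 83.8 CPM in TLCP, against 51.1, 56.5 and 78.7 CPM in Tfh. A single Tfh library, number 4, lay among the TLCP values (log2 fold change 0.37, SE 0.095, adjusted p = 0.0055).

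The PeBoW complex, which is required for maturation of the large subunit RNA, is made of Pes1, Bop1 and Wdr12. Wdr12 rose by 0.29 on the log2 scale (SE 0.089, adjusted p = 0.017). Bop1 had a log2 fold change of 0.22 (95% interval 0.01 to 0.43, adjusted p = 0.13) and Pes1 of -0.02 (95% interval -0.19 to 0.15, adjusted p = 0.88). The interval of Bop1 leaves out 0 only because it is a normal one, as the edgeR test gave an unadjusted p of 0.056. The ratio of Pes1 to Wdr12 reads was lower in TLCP in all 6 pairs, at 0.53 ± 0.17 (log2) in TLCP and 0.85 ± 0.18 in Tfh, with overlap. Of the other large subunit members, the stalk assembly factor Mrto4 had 0.30 (SE 0.18, adjusted p = 0.22) and Rrs1 0.19. The RNA methyltransferase Nop2 and the assembly factor Nop16 had 0.09 each, and none of these 4 passed.

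The last group holds abundant nucleolar proteins of several functions, and 3 of its 5 members passed at adjusted p-values between 0.048 and 0.05. All 3 were higher, and 16.8% of all genes tested were called higher. Mybbp1a, a nucleolar binder of transcription factors, had 120, 131 and 145 CPM in TLCP, against 82.9, 109 and 144 CPM in Tfh (log2 fold change 0.27, SE 0.10, adjusted p = 0.048). Pa2g4, which binds ribosomes and ErbB3, had 116, 133 and 148 CPM in TLCP, against 90.05, 113 and 137 CPM in Tfh (log2 fold change 0.23, SE 0.088, adjusted p = 0.049). Both were higher in TLCP in 5 of 6 pairs, and both groups overlapped. Of the 12 fits that left out a library, Mybbp1a lost its call in 11 and Pa2g4 in 9. Ncl, nucleolin, averaged 1193 ± 68.5 CPM in TLCP and 1074 ± 53.6 CPM in Tfh, with an adjusted p of 0.049999 for a log2 fold change of 0.15, and lost its call in 9 of those fits. Npm1, the histone chaperone nucleophosmin, had 362, 418 and 471 CPM in TLCP, against 369.5, 386 and 414 CPM in Tfh, and did not pass (log2 fold change 0.11, 95% interval -0.01 to 0.23, adjusted p = 0.20). Ddx21, an RNA helicase, had a log2 fold change of 0.08 (95% interval -0.03 to 0.19, adjusted p = 0.28) and did not pass.

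Per length, on the deposited TPM scale, the members spanned a wide range of levels. Mean TPM over all 12 libraries ran from 5.60 for Wdr12 to 363 for Npm1, followed downward by Ncl (268), Ddx21 (153), Pa2g4 (106), Ubtf (72.8) and Nop10 (65.4). Myc averaged 41.0 ± 7.06 TPM in TLCP and 18.1 ± 3.33 TPM in Tfh. The 34 members other than Myc summed to 3470 to 3834 CPM in TLCP, against 3186 to 3455 CPM in Tfh. A single TLCP library, number 3, lay close to the highest Tfh library. The ratio of Myc to this sum was -6.45 ± 0.18 (log2) in TLCP and -7.18 ± 0.25 in Tfh, so Myc differed by more than the sum did, by 0.74 on the log2 scale. The 6 within-library ratios given here were chosen after the members' values were seen and are descriptions.

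**Figure D4:**
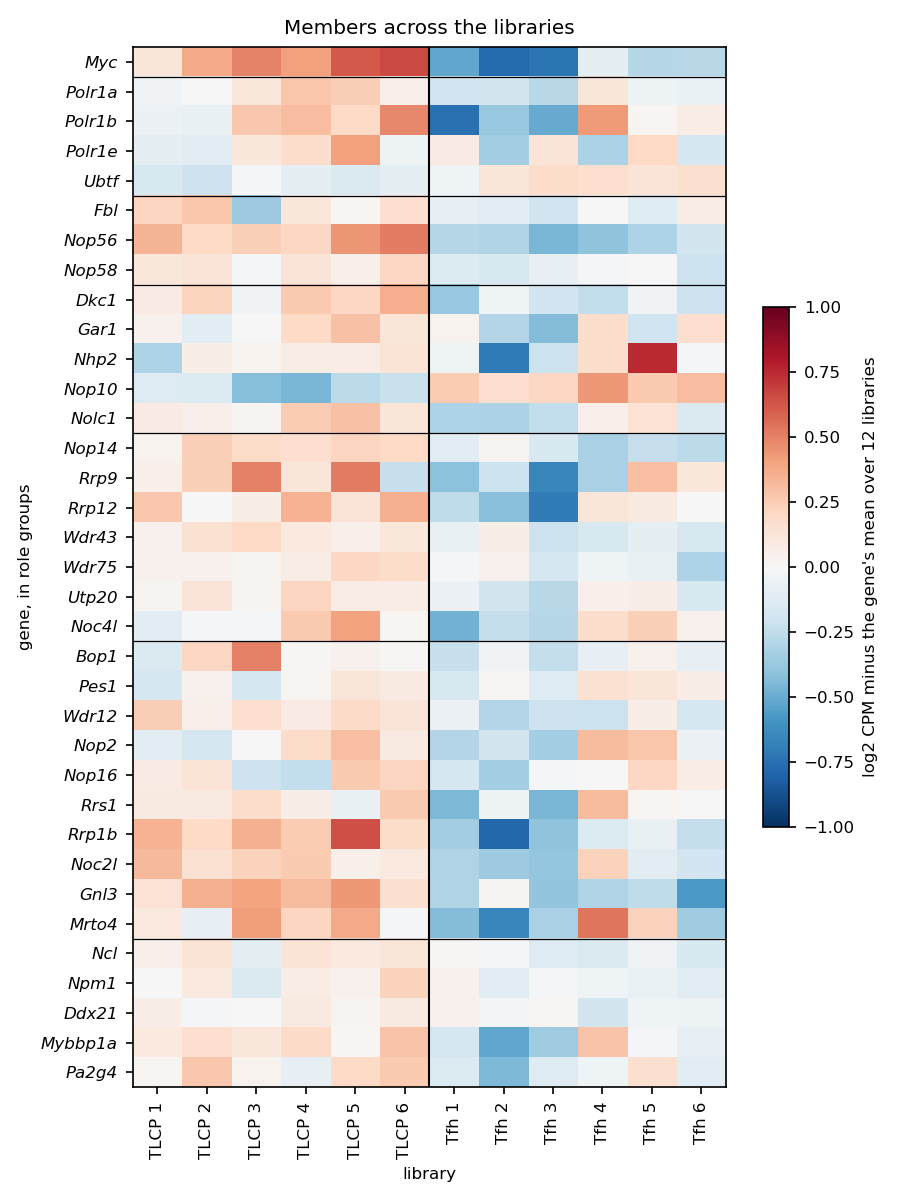
Log2 CPM of each of the 35 members (rows, in role groups) minus the gene's mean over 12 libraries, in each library (columns; TLCP 1 to 6 left, Tfh 1 to 6 right). Red is above and blue below the gene's mean; Myc, Nop56, Rrp1b and Gnl3 are red in TLCP, Nop10 and Ubtf are blue there, and in 16 rows Tfh libraries 4 to 6 all lie above Tfh libraries 1 to 3.

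Ribosome biogenesis genes outside the 35 members were counted in 4 lists with 104 genes tested. Of these, 21 were higher (20.2%) and 6 lower (5.77%), where 16.8% of all genes tested were higher and 16.4% lower, and their median log2 fold change was 0.05. With library totals alone 36 were higher and 1 lower, where 26.7% and 7.43% of all genes were, and on log2(TPM + 1) 38 were higher and 0 lower by limma, where 24.9% and 3.71% were. Small subunit genes had 9 of 44 higher and 2 lower. The 3 with the smallest p rose: the RNA acetyltransferase Nat10, at 46.6 ± 5.66 CPM in TLCP, against 28.8 ± 3.59 CPM in Tfh (log2 fold change 0.70, adjusted p = 2.1e-05), the pre-40S factor Tsr1 (0.49) and Esf1 (0.39). Large subunit genes had 10 of 39 higher and 2 lower. Mdn1, the ATPase that remodels pre-60S particles, rose to 203 ± 10.4 CPM in TLCP, against 161 ± 10.9 CPM in Tfh (log2 fold change 0.34), and the helicase gene Ddx54 rose by 0.50. Tex10, which works in a complex with Mdn1 on the same particles, fell to 47.1 ± 3.86 CPM in TLCP, against 64.4 ± 7.92 CPM in Tfh (log2 fold change -0.45, adjusted p = 4.5e-04), and was not called on TPM (-0.15).

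**Figure D5:**
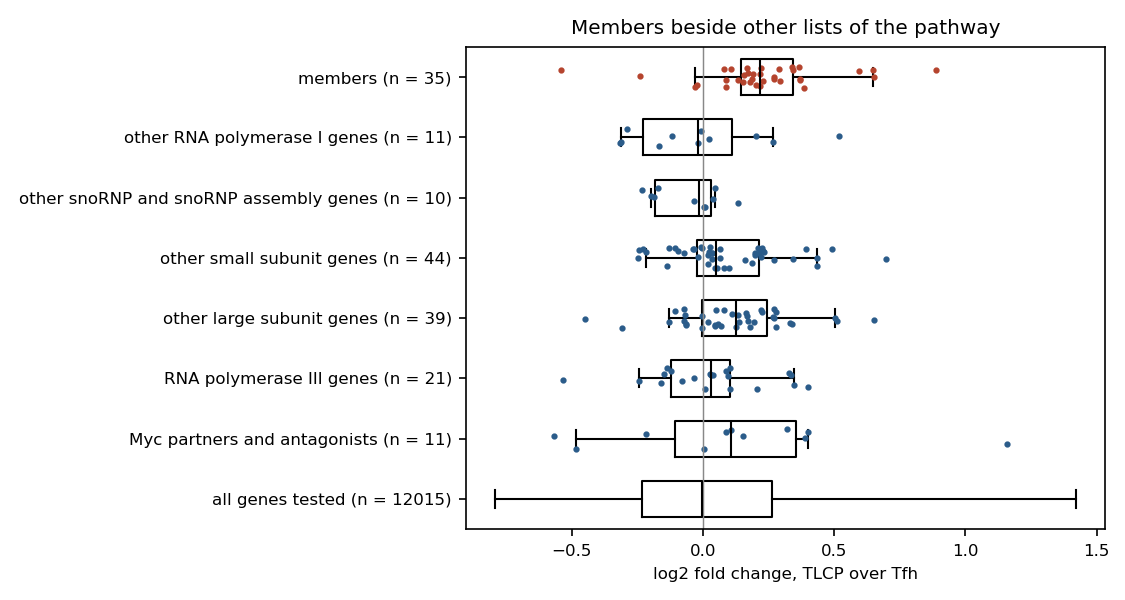
Log2 fold changes, TLCP over Tfh (x axis), of the members (red points) and of genes in 6 other lists (blue points), with boxes from the lower to the upper quartile, a line at the median and whiskers at the 5th and 95th percentiles (all genes tested as a box alone). The members' median is 0.22, that of the other snoRNP genes -0.02, of other large subunit genes 0.13 and of all 12015 genes -0.004.

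Libraries numbered 1 to 3 and 4 to 6 deviated together, though no label names a batch, so the members were also examined within each set. In mice 4 to 6, 7 members were higher and 2 lower, where 11.8% and 10.9% of genes were called. In mice 1 to 3, 15 were higher and 2 lower, where 14.1% and 13.5% were called. The median log2 fold change of the members was 0.14 in mice 4 to 6 and 0.24 in mice 1 to 3. That of all genes was -0.012 in mice 4 to 6 and -0.00018 in mice 1 to 3. In both sets 27 members were positive and 3 negative, and the share of all genes with the same sign in both was not counted. Myc had a log2 fold change of 0.77 in mice 4 to 6 and 1.01 in mice 1 to 3, and Rrp1b of 0.51 in mice 4 to 6 and 0.80 in mice 1 to 3. For Nop56 it was 0.67 in mice 4 to 6 and 0.61 in mice 1 to 3, and for Gnl3 0.67 in mice 4 to 6 and 0.52 in mice 1 to 3. The members that fell had -0.28 in mice 4 to 6 and -0.21 in mice 1 to 3 (Ubtf), and -0.66 in mice 4 to 6 and -0.43 in mice 1 to 3 (Nop10). All of these passed in both sets.

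The change of the difference between the sets was tested by an interaction term, and 0 members and 0 of 12015 genes were called by edgeR. At an unadjusted p under 0.05 there were 3 members (Noc2l, Mybbp1a and Rrs1) and 1115 genes, 9.28% of those tested. DESeq2 called 86 of the 3862 genes it gave an adjusted p (2.23%) and 0 members, and a member without an adjusted p could not be called there. Genes called came to 24 (0.2%) with the numbered pairs as a block, 75 (0.286%) with no filter and 1 (0.00832%) with library totals alone, with 0 members in each. Noc2l had log2 fold changes of 0.14 in mice 4 to 6 and 0.59 in mice 1 to 3, with an adjusted p of 0.36 for the change. Within TLCP, all 3 libraries of mice 4 to 6 were above all 3 of mice 1 to 3 in 6 of 35 members, where this held for 8.56% of all genes. Within Tfh this held for 16 of 35 members, where it did for 13.9% of genes. The libraries of mice 4 to 6 all lay below in 0 members within TLCP and 2 within Tfh, where 9.49% and 14.8% of genes did. Myc was among the 16, with means of 26.7 CPM in Tfh of mice 4 to 6 and 19.4 CPM in Tfh of mice 1 to 3.

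Genes from lists of other cell types and of proliferation were also compared between the groups, where 16.8% of all genes tested were higher and 16.4% lower. Which cells these transcripts came from was not tested. Of 12 B cell genes, 10 were higher in TLCP, and the list summed to 5458 to 24559 CPM in TLCP and 1245 to 2442 CPM in Tfh. Most of the TLCP sum was Ighm, which averaged 10855 CPM in TLCP and 1197 CPM in Tfh. Without Ighm and Ighd the list summed to 817 to 3314 CPM in TLCP and 322 to 982 CPM in Tfh, with overlap. Of 9 plasma cell genes tested, 7 were higher, with sums of 2164 to 11973 CPM in TLCP and 208 to 1481 CPM in Tfh. The plasma cell genes Sdc1, Mzb1 and Tnfrsf17 were at 0 in at least 1 library. Among 4 genes marking CD8 T or NK lymphocytes, 3 were tested and Klrb1c was lower, with sums of 9.31 to 20.6 CPM in TLCP and 14.5 to 22.2 CPM in Tfh. Of 5 macrophage and monocyte genes, 3 were tested (Lyz2, Csf1r and Cd68) and did not pass at adjusted p-values of 0.58, 0.058 and 0.84, with sums of 27.7 to 97.4 CPM in TLCP and 17.0 to 77.2 CPM in Tfh. Cd8a, Ncr1, Csf1r, Adgre1 and Itgam were at 0 in at least 1 library, while Klrb1c, Cd8b1, Lyz2 and Cd68 had reads in all 12. Of 8 proliferation genes, Mki67, Top2a and Tk1 were higher and Ccnb1 was lower in TLCP, with sums of 1480 to 2184 CPM in TLCP and 1367 to 1586 CPM in Tfh. Pcna, Mcm2, Mcm5 and Cdk1 did not pass, and Top2a passed by edgeR at an adjusted p of 0.04996. Without TLCP 4 and 5, the 2 TLCP libraries with the most immunoglobulin reads, 10 members were higher and 2 lower, where 12.3% and 13.1% of genes were. The log2 fold changes of Myc, Nop56, Rrp1b, Gnl3 and Nop10 were then 0.85, 0.64, 0.58, 0.55 and -0.50, all past the threshold. That fit kept TLCP 6, which had the highest B cell sum without Ighm and Ighd, at 3314 CPM. TLCP 4 and 5 had 1688 and 1602 CPM. The part of B cell, plasma cell and proliferating cell RNA in the members' levels was not tested.

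The promoters of the members were read from RefSeq (GRCm38.p6) as 250 bases before to 50 bases after each start listed there. Of the 35 members, 29 matched an entry, with 38 windows, and a gene held a motif if any of its windows did. Those not matched were Myc, Fbl, Bop1, Rrs1, Npm1 and Rrp12. The E-box CACGTG, the best known binding motif of Myc with Max, is its own reverse complement, and was found in 5 of 29 members (17.2%), where 12.02% of the promoters of 8943 genes tested held it. Among the other ribosome biogenesis genes 21 of 88 held it (23.9%). The E-box windows of the 5 members are shown because they hold the letters Myc is known to bind, with the motif in capitals, read 5′ to 3′ on the gene's strand.
Mybbp1a, chr11:72441347-72441376, plus strand: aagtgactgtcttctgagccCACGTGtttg
Nop2, chr6:125131811-125131840, plus strand: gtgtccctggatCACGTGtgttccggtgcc
Pes1, chr11:3963965-3963994, plus strand: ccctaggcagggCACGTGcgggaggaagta
Utp20, chr10:88826765-88826794, minus strand: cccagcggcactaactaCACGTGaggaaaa
Wdr43, chr17:71616220-71616249, plus strand: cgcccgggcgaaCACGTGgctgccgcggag
With the start base counted as 1 and the base before it as -1, the motif begins at base 41 in Mybbp1a, -60 in Nop2, 3 in Pes1, 38 in Utp20 and 18 in Wdr43. Of these 5, Mybbp1a and Wdr43 rose, while Nop2, Pes1 and Utp20 did not pass. Nop56, Rrp1b, Gnl3 and Dkc1 had no CACGTG in their windows.

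Another 4 motifs were searched on both strands in the same windows. CACGCG, a variant E-box, was in 10 of 29 members (34.5%), 20.3% of genes tested and 29 of 88 other ribosome biogenesis genes (33.0%). GGGCGG, the core of the GC box, was in 22 members (75.9%), 69.0% of genes tested and 57 of those 88 (64.8%). The median share of G and C bases was 58.8% over the members' windows and 52.7% over all promoter windows. CCGGAAG, a core of ETS factor sites, was in 6 of 29 members (20.7%), 22.1% of genes tested and 45 of 88 other ribosome biogenesis genes (51.1%). ATGGCGGC, a core of YY1 sites, was in 2 members (6.90%), 6.13% of genes tested and 9 of 88 other ribosome biogenesis genes (10.2%). The 250 bases before the start are shown for Nop56, the member of a modification particle that rose most, and Nop10, the member that fell most; capitals mark the single GGGCGG match of Nop56, read here as its reverse complement.
Nop56, chr2:130274162-130274411, plus strand: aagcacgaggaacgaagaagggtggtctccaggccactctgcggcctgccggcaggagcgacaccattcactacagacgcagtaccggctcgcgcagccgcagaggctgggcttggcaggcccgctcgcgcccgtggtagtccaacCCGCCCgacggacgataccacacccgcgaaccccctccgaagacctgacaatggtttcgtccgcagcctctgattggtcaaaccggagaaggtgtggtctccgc
Nop10, chr2:112261676-112261925, plus strand: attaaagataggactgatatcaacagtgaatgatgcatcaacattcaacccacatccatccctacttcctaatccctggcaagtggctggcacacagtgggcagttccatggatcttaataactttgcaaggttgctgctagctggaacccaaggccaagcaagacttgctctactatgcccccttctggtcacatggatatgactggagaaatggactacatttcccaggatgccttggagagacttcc
The 250 bases before the start of Nop10 held none of the 5 motifs searched, and the 50 bases from its start held CACGCG, so Nop10 is among the 10 members with that motif. A match is a description of these letters and not of binding.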

How the data were processed

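CD4 T cells from infected spleens were enriched by magnetic sorting and separated by flow cytometry, per the labels' protocols, and polyA-selected RNA was made into libraries with a KAPA kit. The submitters' processing notes name bcl2fastq 2.20, STAR 2.7.1a, DESeq2 1.30.1 and GRCm38. The annotation release was not given in the sources used here, and GENCODE M21 gave identical spans for 54821 of 55401 genes and 34 of 35 members.

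The authors deposited raw read counts per gene, 1 file per library, and the column of sense-strand reads was taken (2.83% to 4.19% of reads fell on the opposite strand). The classes that name no gene held 44.9% to 56.4% of reads and were left out. The authors' deposited table gives log2 fold changes, p-values and a normalized signal, the count divided by a size factor, from which 100% of values came out as whole reads (tolerance 0.01) that called 3983 genes. TPM values were deposited as well. Counts were tested in R 4.3.3 with edgeR 4.0.16 (filterByExpr, TMM, robust quasi-likelihood test, 2-sided, Benjamini-Hochberg over 12015 genes, threshold 0.05). SE was taken as the size of the log2 fold change over the root of F. Log2 fold changes on TPM carry a pseudocount of 1 (alternative 0.1) after a minimum of 1 TPM in 6 libraries, and understate low genes. Alternatives were other scalings, filters and strand settings, DESeq2 1.42.0, limma 3.58.1, the replicate block, sets of mice and leaving out libraries or genes. The script was tested on simulated data.

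Deviations of libraries with the same number correlated at 0.15 to 0.34, and 10 of 12 libraries correlated best with their own number (other numbers reached 0.22), so the numbers, given with 6 mice, were taken to pair the samples. Other numbers of the same set of mice had a median correlation of 0.10, and -0.14 across sets. Libraries of the same group always differed beyond sampling noise (chi-square per degree of freedom of 6.66 or more). The members, role groups and lists were chosen with earlier results of these data known. Myc, the 2 members of each role group with the smallest p and the member with the highest TPM are given per library, and the 3 members of each other list with the smallest p are named. Promoters are from RefSeq (GRCm38.p6).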

Additional observations from a re-analysis of the deposited data

Results flagged for a closer look

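Of 70 groups of 6 libraries examined (35 members in 2 populations), 4 had a library whose gap to its nearest neighbour, divided by the group's range, exceeded Dixon's 95% critical value, where chance gives about 1 in 20. TLCP library 1 was low for Nop14, at 52.0 CPM with the next at 57.3, and for Nhp2, at 14.8 CPM with the next at 18.9. TLCP library 5 was high for Rrp1b, at 60.1 CPM with the next at 49.2. Tfh library 1 was low for Ubtf, at 195 CPM with the next at 218. Without that library the fold changes of these genes stayed on the same side of the threshold, except that the fold change of Nhp2, which did not pass, changed sign.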

How the results depend on the processing

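Of the 18 members called, Myc, Nop56, Dkc1, Rrp1b and Gnl3 kept their call under all 17 alternatives and without any of the 12 libraries. Of the 17 members that did not pass, 1 (Fbl) kept that outcome and its sign throughout. The others passed or changed sign in at least 1 fit. The replicate block gave 17 members higher and 2 lower, and moved no member's call other than Polr1b's. Members higher numbered 25 and lower 1 with library totals alone, and 27 and 0 on both TPM pseudocounts. They numbered 7 in mice 4 to 6 only and 10 without the 2 TLCP libraries with the most immunoglobulin, with 2 lower in each. All genes higher and lower numbered 3207 and 893 with totals alone, 3180 and 473 on log2(TPM + 1), and 3115 and 463 on log2(TPM + 0.1). Without single libraries, members higher ran from 10 to 17, members lower stayed at 2, and genes called ran from 3489 to 4008. For the change between sets of mice, genes called numbered 24 with the replicate block, 1 with totals alone, 86 by DESeq2 (of 3862 with an adjusted p), 75 with no filter and 0 to 30 without single libraries, with 0 members in each. The cause of these moves was not tested.

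Some fold changes changed sign, among them 2 that were called lower, of the member Ubtf and of Polr1d, which like Naf1 and Ruvbl1 is not a member. Nhp2 was at 0.15 with totals alone, 0.043 with voom, 0.30 and 0.31 on TPM, 0.011 with the block, 0.23 in mice 1 to 3 and -0.15 to 0.15 without single libraries. Pes1 was at 0.16 with totals alone, 0.26 on both TPM pseudocounts and -0.056 to 0.010 without single libraries. On the 2 TPM pseudocounts Ubtf was at 0.048 and 0.049, Polr1d at 0.0021 and 0.0027, Naf1 at 0.11 and 0.12, and Ruvbl1 at 0.076 and 0.080. Polr1e was at -0.012 in mice 1 to 3. In mice 4 to 6 Nop2 was at -0.00020, Nop16 at -0.014 and Rrs1 at -0.036. Nop2 was at -0.021 without the 2 immunoglobulin-rich libraries. Leaving out single libraries ended the call of Mybbp1a in 11 fits, of Polr1a, Rrp12, Ncl and Pa2g4 in 9 each and of Nolc1 in 5. With 6 libraries a group, changes as small as those of Ncl lie at the edge of what the test calls.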
